A study of Gallus gallus with 9 samples.

Results

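The long non-coding RNAs (lncRNAs) described here are 42 liver transcripts of the chicken that were lower at 42 weeks than at 5 weeks after hatching and had no step down of that size between the embryo and 5 weeks. They were selected on measured values, out of 4127 lncRNAs listed and 2213 that reached 0.5 FPKM in 3 or more of the 9 libraries. FPKM is the number of sequenced fragments of a transcript, scaled to its length and to the size of the library. On the deposited log2(FPKM + 1) scale, averaged over the libraries of an age, 3 conditions had to be met. The 42-week mean was at least 1 below the 5-week mean, the 5-week mean was less than 1 below the embryonic mean, and the 42-week mean was less than 1 above the embryonic mean. All 3 differences between ages were therefore used to choose these lncRNAs, and their levels are given as a description, with no test. All 42 passed the filter on low values, 19 of them with at least 0.5 FPKM in all 9 libraries. For 5 of them only the 3 libraries at 5 weeks reached that level.

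Liver was sampled at embryonic day 13 (E13, the stage named embryonic in the labels), at 5 weeks (rapid growth) and at 42 weeks (adult and aged). There were 3 libraries an age, named biological replicates in the labels. The sources used here give no treatment, genotype, breed, sex or batch.

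LncRNAs are transcribed and often spliced like messenger RNAs but are not translated into long proteins. Some act on the transcription of nearby genes or as scaffolds for protein complexes, and the role of most is unknown. In birds the liver is the main site of fatty acid synthesis and also makes most plasma proteins, and in the embryo it handles lipid taken up from the yolk. The 42 carry transcript-unit identifiers, none of which is paired with a gene name, a position or a sequence in the sources used here, so no role is given for any of them. The mRNA identifiers could not be paired with gene names either, so the tissue label was not checked against liver or blood cell markers. In whole liver, fewer cells of a type and less RNA per cell cannot be told apart.

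Of the 2213 lncRNAs, 49 had a 42-week mean at least 1 below their 5-week mean, which is 2.21%. Of these, 5 were left out because they were already at least 1 lower at 5 weeks than at E13, and 2 because they were still at least 1 higher at 42 weeks than at E13. The remaining 42 make up 1.90% of the lncRNAs past the filter. Their median log2 difference between 42 and 5 weeks was -1.21, with a range of -3.23 to -1.0, against a median of -0.02 over all 2213. As a ratio of mean FPKM, the 42-week level was 0.271 of the 5-week level in the median lncRNA of the 42, with a range of 0.0399 to 0.407. The cut crosses a continuous distribution, and 21 of the 42 lay between -1.2 and -1.0 while 11 lay at -1.5 or lower.

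Just inside the cut, TU63055 had a difference of -1.02 and TU1174 one of -1.0. Just outside it, and meeting the other conditions, TU55488 had a difference of -0.99 and TU60939 one of -0.98. TU60939 had 4.40, 4.59 and 4.91 FPKM at E13, 6.24, 5.54 and 7.08 FPKM at 5 weeks and 2.24, 2.81 and 3.07 FPKM at 42 weeks. Its libraries at 42 weeks all lay below those of both other ages.

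**Figure D1:**
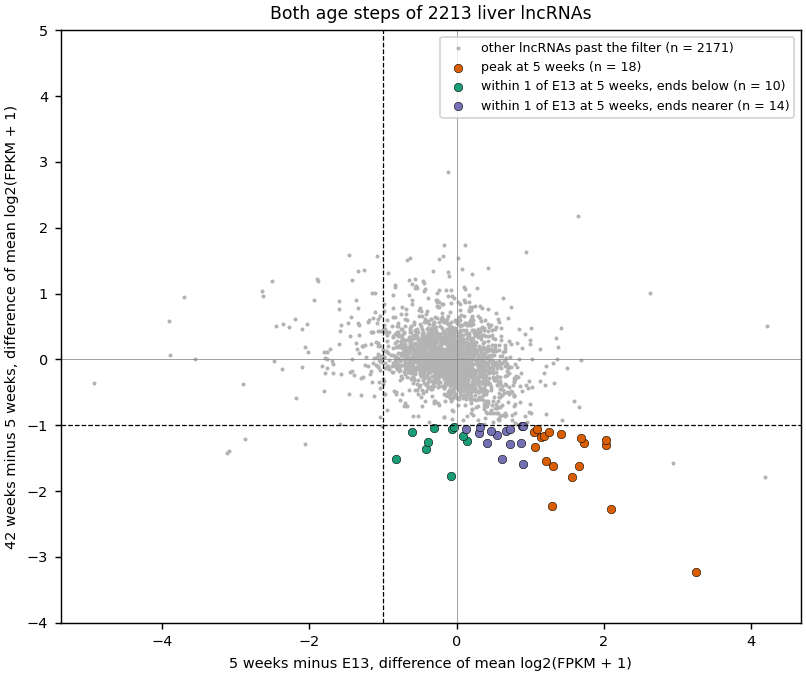
Difference of mean log2(FPKM + 1) between 5 weeks and E13 (x axis) and between 42 and 5 weeks (y axis) for 2213 lncRNAs, with the 42 chosen ones in colour by pattern and dashed lines at the cuts of -1. The 18 with a peak at 5 weeks lie at the right, TU64731 is the lowest at -3.23, and 21 of the 42 lie between -1.2 and -1.0 just under the cut.

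The level at E13 and at 42 weeks divides the 42 into 3 patterns, which are read from the same values. In 18 the 5-week mean was at least 1 above the E13 mean, so that the level peaked at 5 weeks. In 10 the 5-week mean was within 1 of the E13 mean and the 42-week mean was at least 1 below it. The other 14 were within 1 of E13 at 5 weeks, all of them above it by 0.13 to 0.90, and ended less than 1 below it. The 5-week mean was the highest of the 3 ages in 34 of the 42 and the E13 mean in 8, all 8 in the second pattern. The 42-week mean was the lowest of the 3 ages in 32. The division moves with the scaling of the libraries, since the median log2 difference of all 2213 between 5 weeks and E13 was -0.11 as deposited and 0.01 with the library medians set equal. With that scaling the 3 patterns held 21, 7 and 15 lncRNAs, and 35 of the 42 stayed in their pattern, while after quantile normalization the numbers were 22, 8 and 16, and 32 stayed.

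Between 42 and 5 weeks the libraries of the 42 mostly did not overlap. All 3 libraries at 42 weeks lay below all 3 at 5 weeks in 37 of 42, against 16.4% of the 2213. The highest 42-week library was at least 2 times lower than the lowest 5-week library in 23 of 42, against 3.3% of the 2213. In the limma fit over all 2213, 34 of the 42 were called lower at 42 weeks than at 5 weeks (adjusted p under 0.05 and a log2 difference of at least 1), against 1.72% of the 2213. These counts follow from how the 42 were chosen and are no evidence about them. Of the 8 without a call, TU64287, TU63626 and TU63055 had no overlap between the libraries of 42 and 5 weeks, and TU46214, TU19324, TU62746, TU61395 and TU41936 had some.

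**Figure D2:**
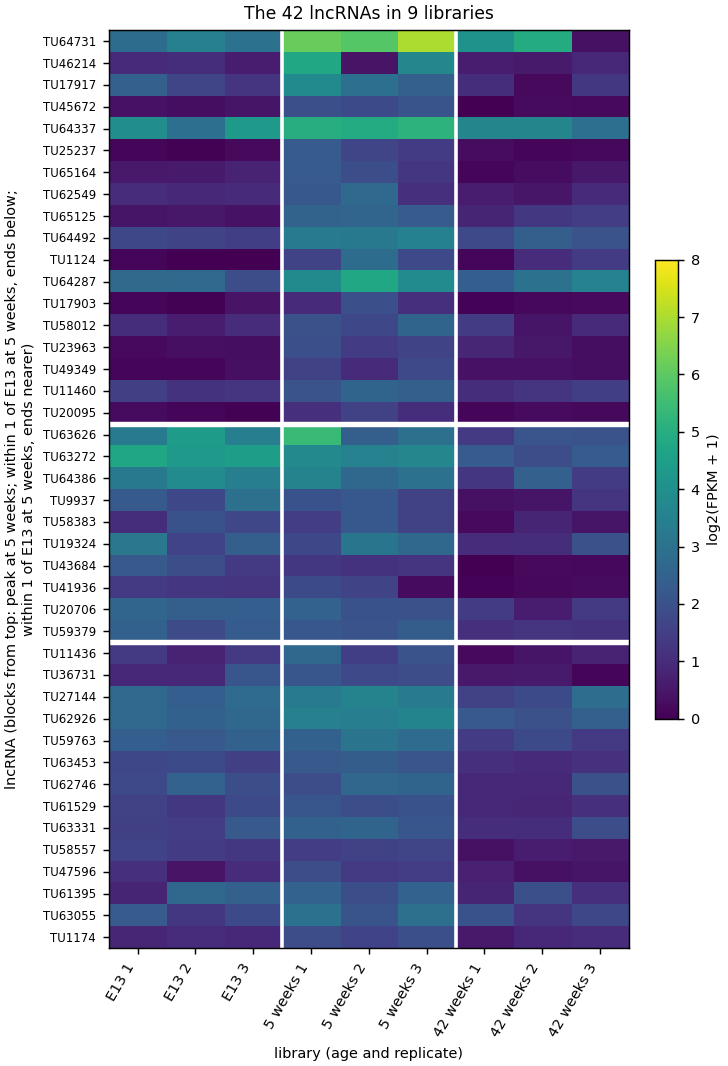
Level of each of the 42 lncRNAs in each library as log2(FPKM + 1), with ages from left to right and the 3 patterns from top to bottom. TU64731 is the brightest row at 5 weeks and is near 0 in 42-week library 3, and TU46214 is dark in 5-week library 2 alone among the 5-week libraries.

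The peak pattern held the most abundant lncRNA at 5 weeks. TU64731 had 6.16, 10.2 and 6.96 FPKM at E13, 68.9, 58.8 and 129 FPKM at 5 weeks, and 15.8, 29.1 and 0.287 FPKM at 42 weeks. By mean FPKM it ranked 43 of 2213 at E13, 1 at 5 weeks and 7 at 42 weeks. The libraries at 5 weeks lay above those of both other ages, while 2 of the 42-week libraries lay above all E13 libraries and the last lay far below them. Its log2 difference between 42 and 5 weeks was -3.23 ± 0.91 (SE from the limma fit, here and below). This SE pools the spread of the 3 ages and is drawn toward the trend over all 2213 lncRNAs. Where the libraries of an lncRNA disagree widely, as here with an SD of 2.42 at 42 weeks, the SE understates that spread. The difference was -1.86 without 42-week library 3 and -4.13 without 42-week library 2. Without library 3 the 42-week mean was more than 1 above E13, so that TU64731 no longer met the rule.

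TU17917 and TU45672 had the next largest differences among lncRNAs of this pattern whose 42-week and 5-week libraries did not overlap. TU17917 had 4.46, 2.18 and 1.31 FPKM at E13, 13.3, 6.64 and 4.44 FPKM at 5 weeks, and 1.05, 0.158 and 1.48 FPKM at 42 weeks. Its lowest 5-week library lay just below its highest E13 library, so those 2 ages overlapped. The log2 difference between 42 and 5 weeks was -2.22 ± 0.42 (SE). TU45672 had 0.303, 0.229 and 0.360 FPKM at E13, 2.90, 2.50 and 3.19 FPKM at 5 weeks, and 0.00876, 0.179 and 0.156 FPKM at 42 weeks. Its 5-week libraries agreed closely, with a coefficient of variation of 12.1%, and no 42-week library reached the lowest E13 library. The mean at 42 weeks was 0.0399 of that at 5 weeks, the lowest ratio among the 42, and the log2 difference was -1.79 ± 0.13 (SE). TU45672 passed the filter through its 5-week libraries only, with all E13 and 42-week values under 0.5 FPKM. Its ratio and the order of its E13 and 42-week libraries therefore rest on very low values.

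TU64337 and TU64287 stood at higher levels. TU64337 had 14.2, 6.62 and 18.8 FPKM at E13, 30.9, 29.2 and 35.0 FPKM at 5 weeks, and 11.6, 11.5 and 6.62 FPKM at 42 weeks. Its libraries at 42 weeks lay within the range of those at E13, and both ages lay below the 5-week libraries, with a log2 difference of -1.62 ± 0.37 (SE) between 42 and 5 weeks. After quantile normalization that difference was -1.17, which still met the rule. TU64287 had 5.84, 5.66 and 2.69 FPKM at E13, 13.1, 26.6 and 13.6 FPKM at 5 weeks, and 4.21, 6.89 and 10.6 FPKM at 42 weeks. The gap between its highest 42-week and lowest 5-week library was narrow, and its log2 difference of -1.19 ± 0.39 (SE) was -0.96 after quantile normalization, which puts it outside the rule.

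TU46214 was chosen for mention after its values were seen, because its libraries at 5 weeks disagreed. It had 0.937, 1.06 and 0.537 FPKM at E13, 26.2, 0.347 and 12.2 FPKM at 5 weeks, and 0.551, 0.494 and 0.870 FPKM at 42 weeks. The second 5-week library was the lowest of all 9, and the other 2 stood far above every other library. Its log2 difference between 42 and 5 weeks, -2.27 ± 0.81 (SE), was -1.37 without 5-week library 1 and -3.54 without 5-week library 2.

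Several others of this pattern had low levels at E13, at 42 weeks or at both, and TU25237 and TU1124 were also picked out after their values were seen. The E13 mean was under 0.5 FPKM in 8 of the 18 and the 42-week mean in 7. TU25237 had 0.102, 0.0407 and 0.148 FPKM at E13, 3.89, 2.22 and 1.64 FPKM at 5 weeks, and 0.190, 0.0919 and 0.117 FPKM at 42 weeks, so both outer ages lay far below the 5-week libraries. TU1124 had 0.0800, 0.0157 and 0.00814 FPKM at E13, 2.09, 6.14 and 2.38 FPKM at 5 weeks, and 0.107, 1.03 and 1.60 FPKM at 42 weeks. All its 42-week libraries stayed above its E13 libraries, though the first only slightly.

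In the median lncRNA of the 18, the difference between 42 and 5 weeks was 98.6% of the difference between 5 weeks and E13, with a range of 60.4 to 171%. The 42-week mean lay within the range of the E13 libraries in 8 of the 18, below it in 4 and above it in 6. The median log2 difference between 42 weeks and E13 was 0.02, with 10 of 18 above 0 and 8 below. The rule required a fall after 5 weeks. It also left out lncRNAs whose 42-week mean stayed above the E13 mean by the size of the cut or more. A 42-week level near that of E13 therefore follows in part from how the 18 were chosen. No return to the E13 level is read from these values. All 3 libraries at 5 weeks lay above all 3 at E13 in 16 of the 18, the exceptions being TU46214 and TU17917. Over the 42 this count was 24, against 15.7% of the 2213. In the limma fit 17 of the 42 were called higher at 5 weeks than at E13, against 1.81% of the 2213, and all 17 belong to the peak pattern. That contrast was also used to choose and divide the lncRNAs, so nothing is read from these counts.

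**Figure D3:**
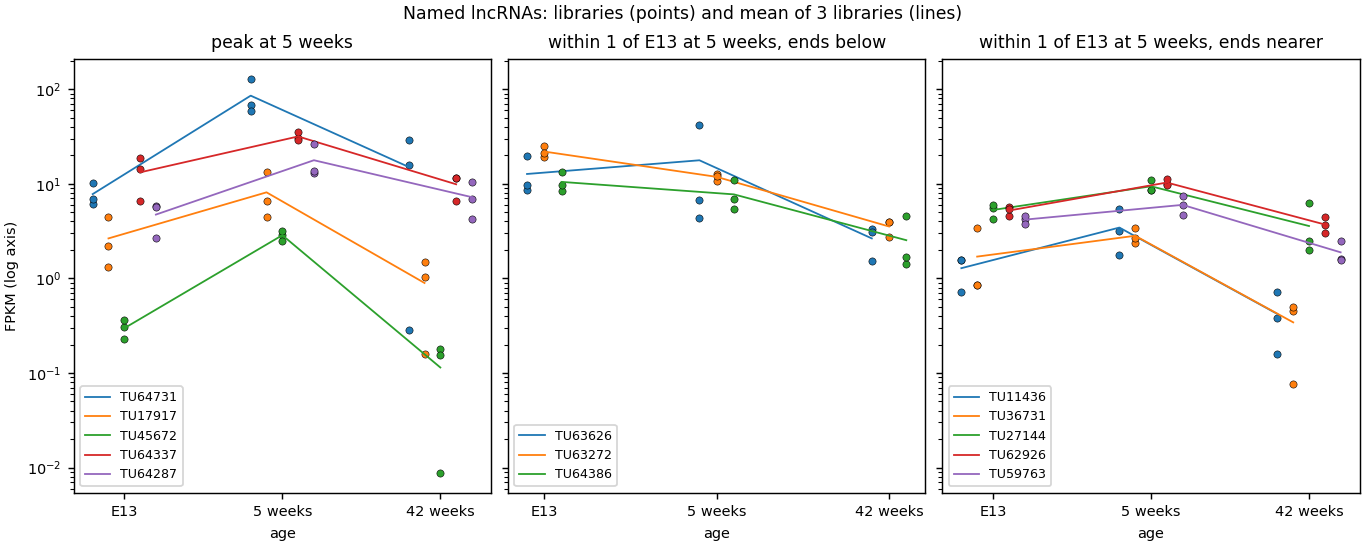
FPKM on a log axis at E13, 5 weeks and 42 weeks for the lncRNAs named for the largest difference or the highest level in each pattern, with points for libraries and lines through the mean of 3 libraries. In the left panel TU64731 has 1 library at 42 weeks at 0.287 FPKM, far under the other two, and in the middle panel TU63626 has 1 library at 5 weeks at 42.0 FPKM, far above the other two.

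In the second pattern the 5-week level differed from the embryonic one by less than 1 on the log2 scale, and the level at 42 weeks was lower than at both. TU63272 had 25.3, 19.2 and 21.2 FPKM at E13, 12.7, 10.8 and 12.1 FPKM at 5 weeks, and 3.91, 2.71 and 3.99 FPKM at 42 weeks. The 3 ages did not overlap, and both steps went down, by a log2 difference of -0.83 ± 0.24 (SE) between 5 weeks and E13 and of -1.51 ± 0.24 (SE) between 42 and 5 weeks. It had the highest E13 mean of the 42, at 21.9 ± 3.12 FPKM (SD, n = 3), and the lowest coefficient of variation at 5 weeks, 8.31%. TU64386 had 8.37, 13.4 and 9.63 FPKM at E13, 10.9, 5.42 and 6.92 FPKM at 5 weeks, and 1.41, 4.53 and 1.67 FPKM at 42 weeks. Its libraries at E13 and 5 weeks overlapped, and those at 42 weeks lay below both, by -1.36 ± 0.36 (SE) on the log2 scale against 5 weeks.

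TU63626 had 8.65, 19.9 and 9.62 FPKM at E13, 42.0, 4.38 and 6.82 FPKM at 5 weeks, and 1.54, 3.30 and 3.10 FPKM at 42 weeks. The first 5-week library held 78.9% of the 5-week sum, the largest such share among the 42, and the other two lay below all E13 libraries. Its log2 difference between 42 and 5 weeks, -1.78 ± 0.65 (SE), was -0.87 without that library, which does not meet the rule, and -2.37 without 5-week library 2. All 42-week libraries lay below all libraries of both earlier ages.

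TU43684, picked out after its values were seen, had 3.75, 2.77 and 1.56 FPKM at E13, 1.48, 1.25 and 1.34 FPKM at 5 weeks, and 0.0119, 0.147 and 0.120 FPKM at 42 weeks. All its 5-week libraries lay below those at E13, with a ratio of mean FPKM of 0.504, while at 42 weeks no library came near either age and the mean was 0.0685 of that at 5 weeks. All 3 libraries at 42 weeks lay below all 3 at E13 in 9 of these 10, the exception being TU19324, and in 17 of the 42, against 33% of the 2213. In the limma fit 9 of the 42, all in this pattern, were called lower at 42 weeks than at E13, against 5.56% of the 2213. The share of the 42 is near that of all lncRNAs for the first count, and both come from a contrast that the rule used.

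In the third pattern, where the conditions place the 5-week mean above the E13 mean, the median log2 difference between them was 0.65. In 8 of the 14 all 5-week libraries lay above all E13 libraries, against 15.7% of the 2213. This count follows in part from the same conditions, and nothing is read from it. TU27144 and TU62926 were the most abundant of the 14 at 5 weeks. TU27144 had 5.61, 4.26 and 6.0 FPKM at E13, 8.57, 11.0 and 8.65 FPKM at 5 weeks, and 1.99, 2.49 and 6.26 FPKM at 42 weeks. Its 42-week library 3 lay above all E13 libraries and the other two below them, and the log2 difference between 42 and 5 weeks was -1.29 ± 0.32 (SE). TU62926 had 5.68, 4.55 and 5.42 FPKM at E13, 10.1, 9.61 and 11.3 FPKM at 5 weeks, and 3.68, 2.99 and 4.48 FPKM at 42 weeks. Here the 3 ages did not overlap, and the 42-week libraries were the lowest, with a log2 difference of -1.27 ± 0.22 (SE) against 5 weeks. TU59763 had the same difference, -1.27 ± 0.22 (SE), and also no overlap between ages, with 4.26, 3.72 and 4.56 FPKM at E13, 4.65, 7.38 and 5.94 FPKM at 5 weeks, and 1.60, 2.48 and 1.58 FPKM at 42 weeks.

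TU11436 and TU36731 had the largest differences of this pattern and were lower in level. TU11436 had 1.57, 0.713 and 1.57 FPKM at E13, 5.43, 1.78 and 3.13 FPKM at 5 weeks, and 0.159, 0.379 and 0.724 FPKM at 42 weeks. Its highest 42-week library just passed its lowest E13 library, and its 5-week libraries stood above both ages, with a log2 difference of -1.58 ± 0.29 (SE) between 42 and 5 weeks. TU36731 had 0.856, 0.862 and 3.38 FPKM at E13, 3.40, 2.38 and 2.69 FPKM at 5 weeks, and 0.456, 0.496 and 0.0773 FPKM at 42 weeks. One E13 library reached the 5-week level and the other two did not, while the 42-week libraries were the 3 lowest, with a log2 difference of -1.52 ± 0.30 (SE) against 5 weeks.

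Near the cut, TU63055 had 3.88, 1.45 and 2.49 FPKM at E13, 6.98, 3.23 and 6.73 FPKM at 5 weeks, and 3.01, 1.33 and 2.36 FPKM at 42 weeks. Its libraries at 42 weeks and E13 covered much the same levels, and its highest 42-week library almost reached its lowest 5-week library. TU1174 had 0.802, 1.00 and 0.890 FPKM at E13, 2.75, 2.04 and 2.87 FPKM at 5 weeks, and 0.463, 0.858 and 1.01 FPKM at 42 weeks, with no overlap between 5 weeks and the other ages.

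The remaining 4 of the 5 lncRNAs whose 42-week and 5-week libraries overlapped did so through 1 library each, and they are named after their values were seen. TU41936 had 0.171 FPKM in its highest 42-week library and, just under that, 0.164 FPKM in 5-week library 3, while its other 5-week libraries had 2.48 and 2.10 FPKM. The log2 difference of TU41936, -1.05 ± 0.33 (SE), was -0.76 without 5-week library 1 and -1.55 without 5-week library 3. TU19324 had 2.93 FPKM in 42-week library 3 and 2.32 FPKM in 5-week library 1, TU62746 had 2.96 and 2.78 FPKM in the same libraries, and TU61395 had 2.90 FPKM in 42-week library 2 and 2.79 FPKM in 5-week library 2. Apart from these pairs, the 42-week libraries of all 4 lay below their 5-week libraries.

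Together the 42 held 3.59%, 3.73% and 3.51% of the summed FPKM of all 4127 lncRNAs at E13, 11.9%, 8.94% and 12.6% at 5 weeks, and 2.83%, 3.28% and 2.23% at 42 weeks. The mean share (SD, n = 3 an age) was 3.61 ± 0.11% at E13, 11.2 ± 1.9% at 5 weeks and 2.78 ± 0.52% at 42 weeks, with no overlap between 5 weeks and either other age. Without TU64731 these means were 3.41 ± 0.06%, 8.14 ± 1.28% and 2.22 ± 0.03%. The direction of this course follows from the choice of the lncRNAs. At E13, 5 weeks and 42 weeks the 42 summed to 143 ± 4.3, 321 ± 40.1 and 78.5 ± 11.8 FPKM. All 4127 summed to 3954 ± 231, 2899 ± 177 and 2860 ± 441 FPKM. From E13 to 5 weeks that total fell, so the share rose by more than the summed FPKM of the 42. By pattern, the 18 with a peak summed to 36.6 ± 3.9, 200 ± 32.9 and 43.8 ± 13.7 FPKM at E13, 5 weeks and 42 weeks. The 10 that ended at least 1 below E13 on the log2 scale summed to 68.9 ± 3.4, 57.8 ± 23.4 and 14.2 ± 2.7 FPKM. The other 14, which ended below E13 by less than 1, summed to 37.2 ± 4.2, 63.6 ± 2.5 and 20.6 ± 5.1 FPKM. The wide spread of the 10 at 5 weeks lies mostly in the first 5-week library, with 84.9 FPKM against 44.9 and 43.7 FPKM in the other libraries. In that first library TU63626 alone had 42.0 FPKM.

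**Figure D4:**
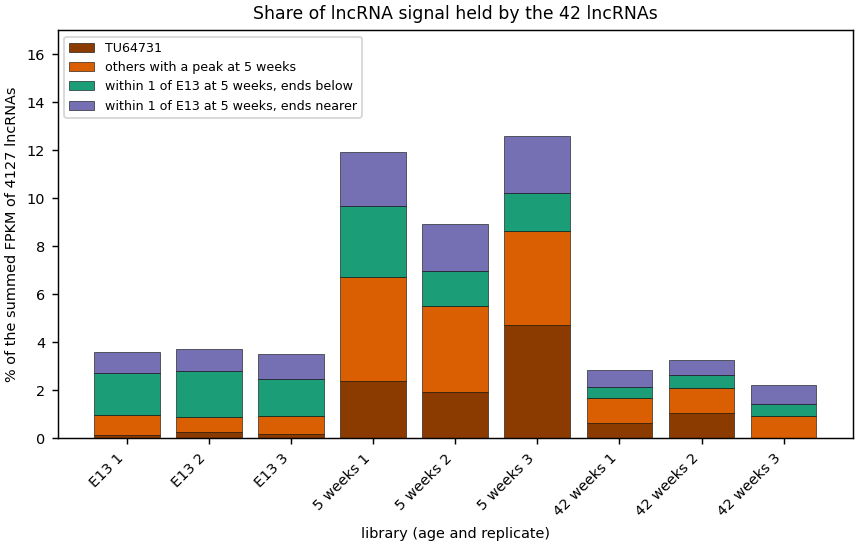
Share of the summed FPKM of 4127 lncRNAs held by the 42 lncRNAs in each of the 9 libraries, in percent, stacked by pattern with TU64731 shown apart. The 5-week bars reach 8.94 to 12.6% and the others 2.23 to 3.73%, and TU64731 takes up to 37.6% of the 42 in 5-week library 3.

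The 42 also moved up and down the order of abundance. Of the 50 lncRNAs with the highest mean FPKM past the filter, they made up 5 at E13, 13 at 5 weeks and 3 at 42 weeks. At the 3 ages, 4, 7 and 1 of them averaged 10 FPKM or more, out of 32, 18 and 15 lncRNAs in all. The median of their mean FPKM was 2.11 at E13, 3.58 at 5 weeks and 0.957 at 42 weeks. The lowest mean at 5 weeks was 1.36 FPKM, whereas 8 had a mean under 0.5 FPKM at E13 and 14 at 42 weeks. A fall of at least 1 on the log2(FPKM + 1) scale needs about 1 FPKM or more at 5 weeks. That floor and the drop in abundance from 5 to 42 weeks therefore follow from how the 42 were chosen. The rise from E13 to 5 weeks does so in part, since the rule left out lncRNAs at least 1 lower at 5 weeks than at E13.

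Within an age, the spread between libraries was wider for the 42 in the median than for the other lncRNAs. The median SD of log2(FPKM + 1) between libraries was 0.22 at E13, 0.32 at 5 weeks and 0.28 at 42 weeks, against 0.15, 0.23 and 0.25 for the 464 other lncRNAs with a mean of at least 1 FPKM at 5 weeks. These differences in spread were not tested, and the same library values were used to choose the 42, so the spread is not read as a trait of them. The 42 also stood at a higher level at 5 weeks than the 464, with medians of 3.58 and 1.65 FPKM. Within ages, the third 42-week library had the highest of the 3 values in 21 of the 42 and the lowest in 6, while over the 2213 it was the highest in 59.0% and the lowest in 20.1%. The first 42-week library was the lowest in 23 of the 42, against 46.2% of the 2213. At 5 weeks the second library was the lowest in 21 of the 42, against 24.7% of the 2213, where it was the highest in 45.9%. In a limma fit that gave less weight to libraries further from their age means, 42-week library 3 had the lowest weight, 0.34. The highest weight, 2.10, went to 42-week library 2. That fit called 43 lncRNAs lower at 42 weeks than at 5 weeks, against 38 without weights. Beyond this fit and the leaving out of single libraries below, the part of these library differences in the results was not tested.

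Because whether an lncRNA meets the rule rests on 3 libraries an age, its conditions were applied again without each of the 9 libraries in turn. The filter on low values was not applied again and stayed as set on all 9 libraries. Of the 42, 20 met the conditions every time, of which 8 had the peak pattern, 5 the second pattern and 7 the third. The 5 lncRNAs that passed the filter through the 3 libraries at 5 weeks only would fail it without any of those libraries. TU45672 and TU25237 are among these 5 and are counted in the 20. The number that met them without a library ran from 34 without 42-week library 1 to 54 without 42-week library 3. Without 42-week library 1, 32 of the 42 were found again, and without 42-week library 3, 39. No lncRNA of the 42 changed the direction of its difference between 42 and 5 weeks, the smallest difference being -0.76. The 42 were chosen in these same libraries by a difference of -1 or lower, which leaving out 1 library moves only in part. The kept direction is therefore no measure of how steady they are.

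**Figure D5:**
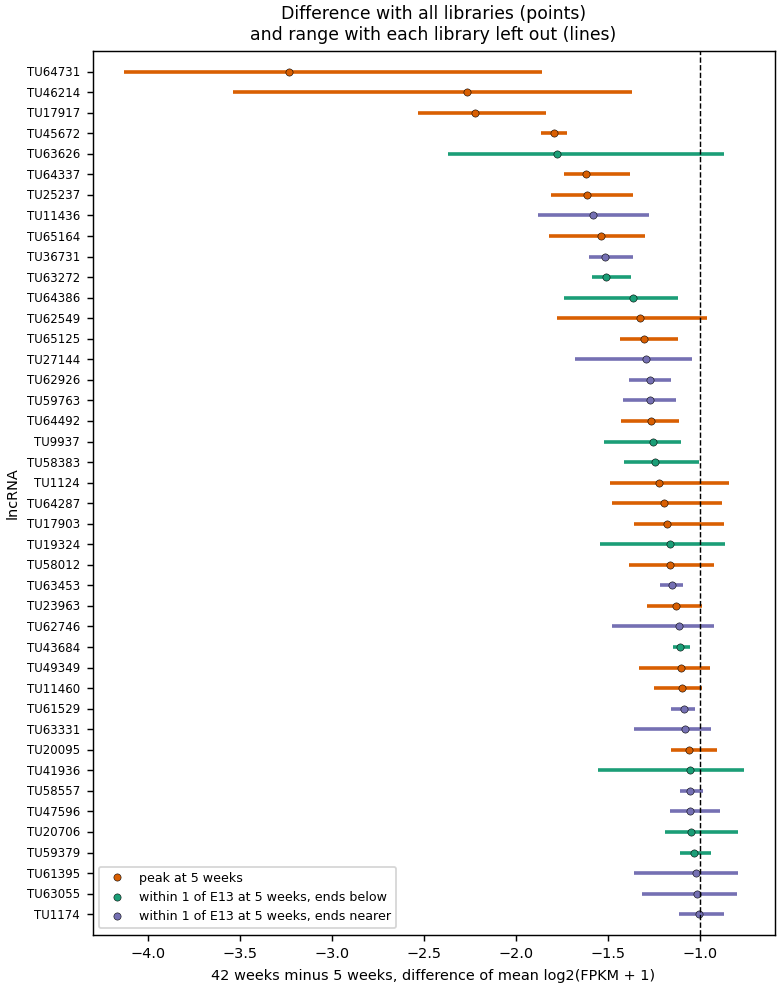
Log2 difference between 42 and 5 weeks for each of the 42 lncRNAs with all libraries (points, coloured by pattern) and its range when each of the 9 libraries is left out in turn (lines), with a dashed line at the cut of -1. The ranges of TU64731, TU46214 and TU63626 are the widest, and that of TU63626 crosses the cut at -0.87.

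The profiles of the 42 over the 9 libraries were alike to different degrees. With each lncRNA centred and scaled, Pearson's r with the mean profile of the 42 ran from 0.53 to 0.97, with a median of 0.78. Between pairs of the 42, r had a median of 0.64 over 861 pairs, with a range of -0.23 to 0.97, and 22 pairs were below 0. These values describe 9 libraries that were also used to choose the lncRNAs. Among 2171 other lncRNAs, the nearest to the mean profile were TU28936 (r = 0.958) and TU41886 (r = 0.955), and 21 of the 2171 (0.967%) had r of at least 0.9. TU28936 (SD, n = 3 an age) had 1.62 ± 0.14 FPKM at E13, 2.50 ± 0.17 FPKM at 5 weeks and 0.992 ± 0.135 FPKM at 42 weeks, a log2 difference of -0.81 between 42 and 5 weeks that leaves it outside the rule.

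Among 11512 mRNAs that reached 1 FPKM in 3 or more libraries, 195 (1.69%) had r of at least 0.9 with the mean profile of the 42 lncRNAs. The nearest were ENSGALG00000013628 (r = 0.994) and ENSGALG00000008162 (r = 0.990), neither of which is paired with a gene name in the sources used here. ENSGALG00000013628 had 22.2, 21.7 and 21.5 FPKM at E13, 45.6, 45.6 and 43.9 FPKM at 5 weeks, and 12.2, 14.6 and 15.8 FPKM at 42 weeks. Its 3 ages did not overlap, and its libraries at 5 weeks were the highest. ENSGALG00000008162 had 14.0 ± 1.4, 31.0 ± 3.3 and 7.63 ± 2.36 FPKM at the 3 ages (SD, n = 3 each). These were the nearest 2 of 11512 mRNAs searched over 9 libraries of 3 ages, and a high r there is a description of shared age differences.

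The same conditions applied to the mRNAs were met by 658 of 11512 (5.72%), against 1.90% of the lncRNAs. Of these mRNAs 21.4% had a peak at 5 weeks, 56.8% were within 1 of E13 at 5 weeks and ended at least 1 below it, and 21.7% were of the third kind, against 42.9%, 23.8% and 33.3% of the 42 lncRNAs. The 2 kinds of transcript were filtered at different levels, lncRNAs have lower FPKM, and the log2(FPKM + 1) scale shrinks differences at low levels, so these shares were set side by side without a test. The median level of the filtered mRNAs was also lower at the later ages. Their median log2(FPKM + 1), averaged over 3 libraries, was 3.22 at E13, 2.75 at 5 weeks and 2.62 at 42 weeks. For the filtered lncRNAs it was 0.77, 0.64 and 0.65. In single libraries the mRNA median was 2.68, 2.87 and 2.70 at 5 weeks and 2.41, 2.59 and 2.86 at 42 weeks. These 2 ages therefore overlapped. The median log2 difference between 42 and 5 weeks was -0.17 over the mRNAs and -0.02 over the lncRNAs, and its part in the shares was not tested.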

How the data were processed

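The authors deposited 1 table of lncRNAs and 1 of mRNAs, both as log2 values of FPKM for 9 liver libraries. The submitters' processing notes name HISAT, StringTie 1.3.3, Cufflinks 2.2.1 and DESeq2 with no role. Which genome build was used is not given in the sources used here. Per the labels' protocols, TruSeq RNA libraries were made from total RNA. The values were read as log2(FPKM + 1), an offset that the mRNA values show (the smallest above 0 is 0.100 FPKM) and that was assumed for lncRNAs. The lncRNA table holds no 0 and goes down to 9.98e-07 FPKM. Read counts and depth are unknown, so very low values have no known read support and no counting error is given. No identifier matched the reference table of gene names, so the cell type markers, listed by symbol, were not analysed here, and 0 columns were left aside.

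The rule was applied in Python 3.11.15. For counts over all 2213 lncRNAs, limma 3.58.1 in R 4.3.3 was fitted to all 9 libraries with 1 mean per age and a mean-variance trend, with Benjamini-Hochberg adjustment, and was checked on simulated data. Named lncRNAs are, in each pattern, the 3 with the largest difference and the 3 with the highest 5-week mean, given no overlap between 42 and 5 weeks and at least 1 FPKM at 5 weeks, plus those nearest the cut, those with the highest single library and the features most like the mean profile. The 42 lncRNAs, the patterns and this rule were chosen with earlier results of these data known.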

Additional observations from a re-analysis of the deposited data

How the results depend on the processing

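The number of lncRNAs that met the rule was 40 to 46 under median scaling, quantile normalization, no filter and a filter of 1 FPKM. An offset of 0.1 FPKM in place of 1 raised it to 238, of which 40 are among the 42, since that scale widens differences at low levels. The median log2 difference of the 42 between 42 and 5 weeks was then -1.90, and the counts of all lncRNAs called were 149 lower at 42 than at 5 weeks, 179 higher at 5 weeks than at E13 and 469 lower at 42 weeks than at E13. A cut of -0.8 gave 80 lncRNAs and one of -1.2 gave 21. Quantile normalization gave 76 called lower at 42 weeks than at E13, against 123 on the deposited scale, and the cause was not tested. In a fit to the libraries of 5 and 42 weeks alone, 28 lncRNAs were called lower at 42 weeks than at 5 weeks, against 38 with all 9. When single libraries were left out, this count ran from 26 without 42-week library 1 to 48 without 42-week library 3. With the replicate number as a block it was 40. Replicate numbers were not taken to pair the libraries, because the deviations of same-numbered libraries from their age means had correlations of -0.03 to 0.10. Differently numbered libraries had correlations of -0.07 to 0.08. Between 42 and 5 weeks alone the ranges were 0.04 to 0.10 and -0.07 to 0.006, so a weak link by number is not excluded. Of 180 values of the 15 named members of the 42 under alternatives, 9 moved by at least the spread between libraries and 0 changed sign. Of these 9, 8 came with the offset of 0.1 FPKM, and the other was TU64337 after quantile normalization. Most of the 180 come from leaving out 1 library, which cannot move a difference by that much. The count is therefore no measure of how steady the values are. With 3 libraries an age and no known depth, the level of 1 library can decide whether an lncRNA meets the rule.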
